A study of Mus musculus with 4 samples.

Results

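The circadian clock genes examined here are Clock, Arntl, Per1, Per2, Per3, Cry1, Cry2, Nr1d1, Nr1d2 and Dbp, taken by gene name from the array's own annotation. They are measured by 14 of the 55681 probes on the array (10 of 34821 gene names), with 2 probes each for Per1, Cry2, Nr1d2 and Dbp and 1 probe for each of the other 6 genes. All 14 probes were well above background on all 4 arrays, with signals from 41.6 to 27838 units. The study precipitated RNA from lysate of the cortex and hippocampus of 8-week-old male C57BL/6 mice, an inbred laboratory strain, on beads coated with CPEB3 IgG or with control IgG, with 2 arrays for each IgG (the CPEB3 arrays and the control arrays). CPEB3, cytoplasmic polyadenylation element binding protein 3, is an RNA-binding protein that regulates translation in neurons. All lysates were incubated with the beads for 3 h and the labels name no transgene or other agent for any sample. The hour of the day at which tissue was taken, and whether lysates were pooled over animals, are not given in the sources used here.

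The clock is a feedback loop of transcription and translation. CLOCK and its partner BMAL1, the product of Arntl, activate the Per and Cry genes, whose proteins return to the nucleus and repress CLOCK and BMAL1. A second loop runs through the nuclear receptors REV-ERB alpha and beta, products of Nr1d1 and Nr1d2, which repress Arntl, and Dbp is a transcription factor driven by the loop. Most of these mRNAs cycle over the day, also in forebrain.

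The probes are 60 bases long, and stretches of 30 bases of those on which the results turn are shown here, each chosen as the stretch with the longest run of T and then the most T. T stands for U in the mRNA, and capitals mark runs of at least 4 T, since proteins of the CPEB family bind uridine-rich RNA.
Per1, position 4564: atttgtgTTTTTgatattgtgtctgttatt
Per1, position 3405: gtggccggctccttgttaaccctggtcttt
Per2, position 5290: ttcacagtgatcaggtagtagccatgTTTT
Clock, position 7243: tcccatttgagttgctcttgtaataTTTTT
Nr1d1, position 1919: ggtgctgatggtgcgctttgcatcgttgtt
Cry2, position 3938: agtttgtttgtgaatatttacctgTTTTat
The first 4 lines set the Per1 probe that rose beside the Per1 probe that did not, and beside the other probes that rose. The last lines are the Nr1d1 probe that fell and a T-rich Cry2 probe that did not pass the test. Positions are counted along the transcript that each probe was designed on, as the files give them.

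Levels are log2 signals minus the 75th percentile of the same array, so a level of 0 is the signal of that percentile, and differences are log2 values, the mean of the CPEB3 arrays minus the mean of the control arrays. A difference therefore compares shares of the RNA brought down by each antibody, not amounts in the tissue, and no input RNA was analysed here. In such bulk lysate fewer cells of a type and less RNA per cell cannot be told apart. Probes were called higher or lower at a limma adjusted p under 0.05 over all 40608 probes tested, and labels do not say that replicates came from separate lysates, so p-values cover only the spread among the arrays, and this may be technical spread. The 75th percentile was 507 and 353 units on the CPEB3 IgG arrays and 443 and 425 units on the control IgG arrays. The 8 neuronal markers checked all exceeded background well on all 4 arrays, while albumin, a liver marker, did so on none. Summed over each list, in multiples of the array's 75th percentile, neuronal markers lay at 307 to 323 with CPEB3 IgG and 272 to 282 with control IgG, and astrocyte markers at 47.4 to 82.6 and 33.9 to 42.7. Oligodendrocyte markers lay at 86.7 to 104 and 90.8 to 111, microglial markers at 12.2 to 17.8 and 22.3 to 25.4, and endothelial markers at 3.38 to 4.13 and 2.65 to 2.73. Of these 20 markers of the tissue 2 were called higher and 2 lower, where 15.8% of all tested probes were called higher and 18.9% lower. Of 4 markers of other tissues 3 were well above background on all arrays, with sums of 1.19 to 1.27 and 1.76 to 2.28, and 2 were called lower. The part of these markers in the differences given here was not tested.

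Among the clock genes Per1, Per2 and Clock were higher in the CPEB3 precipitate and Nr1d1 was lower, while Arntl, Per3, Cry1, Cry2, Nr1d2 and Dbp did not pass the test. Per1 and Per2 were close to 4-fold higher and Clock 2.00-fold higher, and Nr1d1 was 2.91-fold lower. Of the 14 probes 3 were called higher and 1 lower, where 34.7% of all tested probes were called, 15.8% higher and 18.9% lower. The clock shares are 21.4% higher and 7.14% lower, and as 1 probe makes up 7.14% of the 14, they give no result about the group as a whole. The median difference of the 14 probes was 0.22, against −0.19 over all tested probes. The groups did not overlap at 9 of the 14 probes, 7 with CPEB3 IgG higher and 2 with it lower, where 71.3% of all probes did not overlap, 28.6% with CPEB3 IgG higher and 42.7% with it lower. Scaling moved the median over all probes to 0.098 (each array's median as the reference) or 0.46 (spike-in RNA as the reference), so that a difference near 0 has no settled sign. Likewise 45.5% of all calls were upward as reported, 66.2% with median scaling and 85.1% with spike-in scaling.

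**Figure D1:**
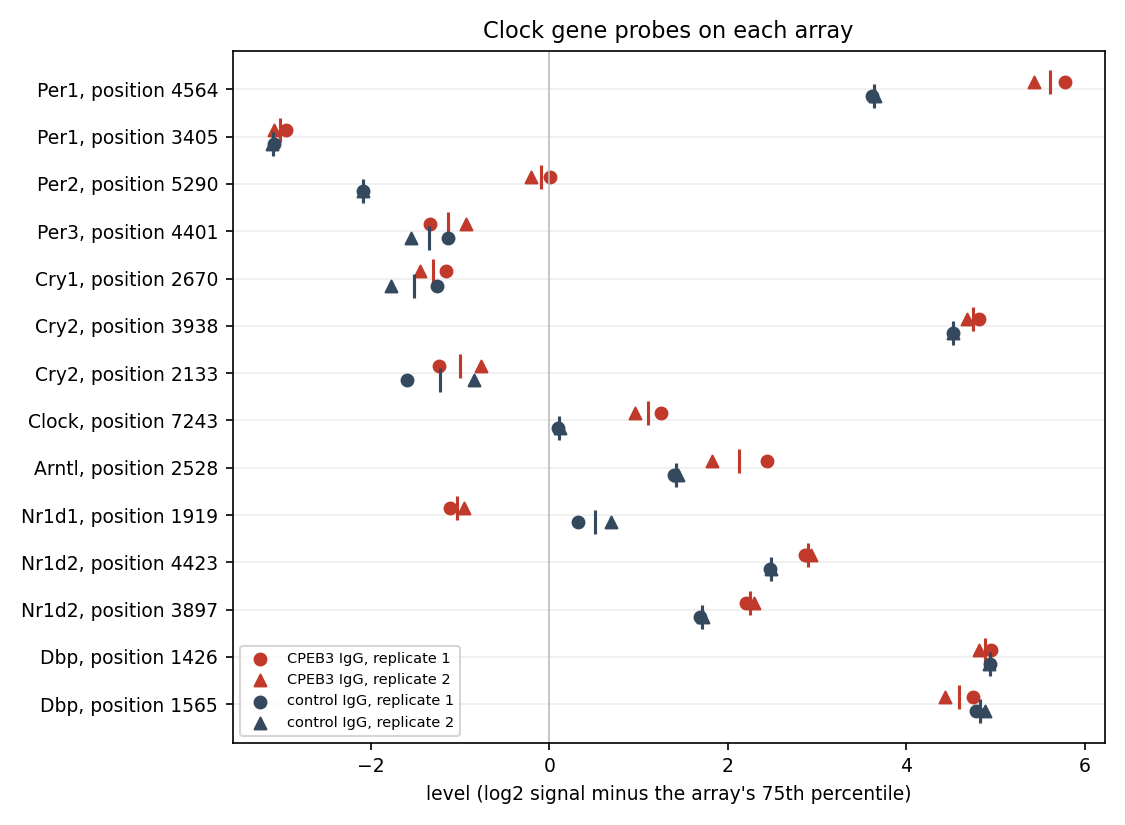
Level of each clock gene probe on each array, as log2 signal minus the array's 75th percentile, with CPEB3 IgG in red and control IgG in dark blue, replicate 1 as circles, replicate 2 as triangles and group means as bars. The CPEB3 IgG points of Per1 at position 4564, Per2 and Clock lie right of the control points, those of Nr1d1 lie left of them, and 5 of the 14 probes overlap.

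The activating arm of the loop was represented by Clock and Arntl. Clock encodes the basic helix-loop-helix protein that pairs with BMAL1. Its probe lies at chr5:76641377-76641436 in mm9, on the minus strand, at position 7243 of the transcript. The signal was 1204 and 688 units on the CPEB3 arrays against 472 and 460 units on the control arrays (replicates 1 and 2). As levels these are 1.25 and 0.96 against 0.092 and 0.12, so both CPEB3 IgG arrays lay above both control arrays. The difference was 1.00 ± 0.18 (SE, limma adjusted p = 0.0193), or 2.00-fold with a 95% interval of 1.43 to 2.80. The call was lost when any one of the 4 arrays was left out, with values of 0.86 and 1.14 on leaving out CPEB3 replicate 1 or 2, and of 0.99 and 1.01 on leaving out control replicate 1 or 2. The call also failed without scaling (0.97, adjusted p = 0.119), and spike-in scaling raised the value to 1.65.

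Arntl, whose product BMAL1 is the partner of CLOCK, has 1 probe at chr7:120457261-120457320 (mm9, plus strand), position 2528. Its levels were 2.44 and 1.82 on the CPEB3 arrays against 1.39 and 1.44 on the control arrays. Both CPEB3 IgG arrays were higher, but they differed from each other by more than the lower of them did from the controls. The difference of 0.71 (95% interval 0.017 to 1.40) did not pass the test (limma adjusted p = 0.100). It fell to 0.40 without CPEB3 IgG replicate 1, and the test was passed only with normexp background correction (0.69, adjusted p = 0.0419).

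The repressing arm comprises the Period and Cryptochrome genes. Per1 is induced by light and by stress hormones as well as by the clock. Its probe near the 3′ end lies at chr11:68923364-68923423 (mm9, plus strand), position 4564 of its RefSeq transcript. The signal was 27838 and 15230 units on the CPEB3 arrays against 5430 and 5338 units on the control arrays. The levels were 5.78 and 5.43 against 3.62 and 3.65, so the lower CPEB3 IgG array stood well clear of both controls. The difference was 1.97 ± 0.19 (SE, limma adjusted p = 0.00602), a 3.92-fold difference with a 95% interval of 2.73 to 5.62. It ranked 1301 from the top of 40608 probes.

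The other Per1 probe was designed on a cDNA clone and lies 3469 bp upstream in the genome, at chr11:68919895-68919954 (position 3405 of that clone). Whether both probes lie in one mRNA was not analysed. The upstream probe was dim, with 65.8 and 41.6 units on the CPEB3 arrays against 52.3 and 49.4 units on the control arrays. Its levels of −2.95 and −3.09 overlapped those of the controls, −3.08 and −3.10. The difference was 0.077 (95% interval −0.35 to 0.51, adjusted p = 0.738). The difference between the antibodies was larger at the 3′ probe than at the 5′ probe by 1.89 ± 0.20 (SE, 95% interval 1.34 to 2.45, limma adjusted p = 0.0178). That test was run over the most 3′ and most 5′ probe of each of 8129 genes with probes placed on 1 strand, of which 19% were called, 15.9% with the 3′ probe higher and 3.08% with it lower, and the median was 0.30. With an array left out the value stayed between 1.79 and 2.00, and the call was lost without either CPEB3 IgG array or control IgG replicate 1 (adjusted p = 0.109, 0.0749 and 0.0678). With the mean of both probes the Per1 difference was 1.02 (adjusted p = 0.0139). The probes also differ in T content, 46.7% at the 3′ probe and 30% at the other, and in brightness, and the part of either in the result was not tested.

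**Figure D2:**
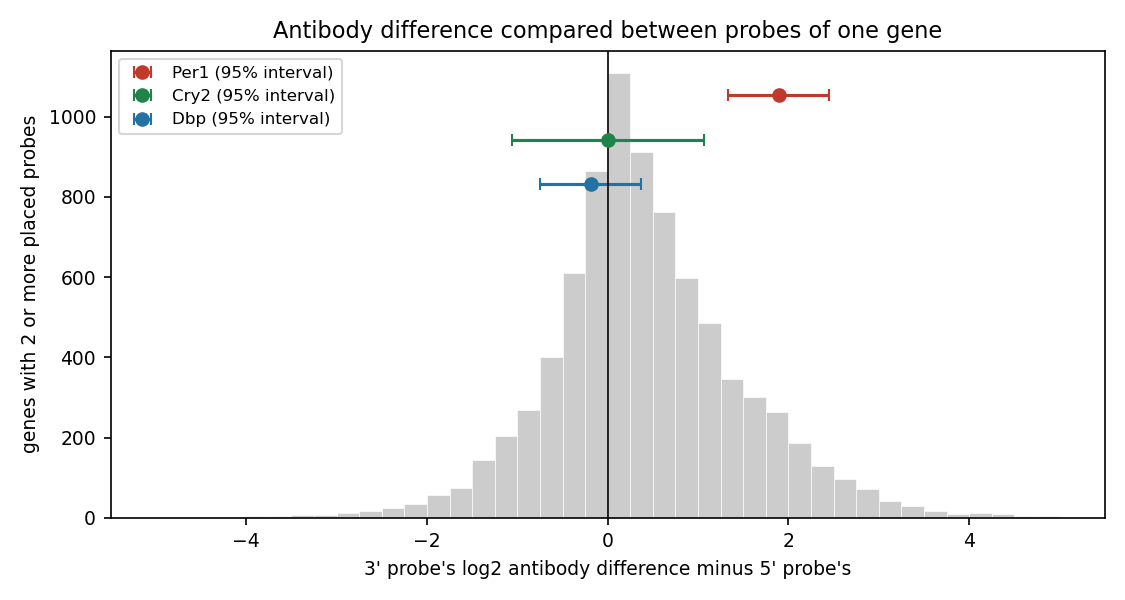
Grey bars count genes by the antibody difference (log2) at the most 3′ probe minus that at the most 5′ probe, with values beyond the axis ends counted in the outermost bars, and points with 95% intervals show Per1, Cry2 and Dbp at heights without meaning. Per1 lies at 1.89, right of most genes, and the intervals of Cry2 and Dbp include 0.

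Per2, the second Period gene, has 1 probe at chr1:93313046-93313105 (mm9, minus strand), position 5290. The signal was 510 and 307 units on the CPEB3 arrays against 104 and 99.6 units on the control arrays. The levels of 0.0099 and −0.20 stood apart from the control levels, which were −2.09 on both arrays. The difference was 1.99 ± 0.17 (SE, limma adjusted p = 0.00536), or 3.99-fold with a 95% interval of 2.91 to 5.46. Its T content of 28.3% equals the median of all tested probes, and its longest run of T is 4 bases. The 3′ probe of Per1 and the Per2 probe were called higher in every setting tried, from 1.54 to 2.65 for Per2 and from 1.80 to 2.63 for this Per1 probe on its own.

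Per3, the third member of the family, did not show this. Its probe lies at chr4:150379256-150379315 (mm9, minus strand), position 4401. Its levels were −1.34 and −0.93 on the CPEB3 arrays against −1.14 and −1.55 on the control arrays, and the groups overlapped. The difference was 0.21 (95% interval −0.46 to 0.87, limma adjusted p = 0.554). Compared directly, Per1 exceeded Per3 by 1.76 ± 0.36 (adjusted p = 0.0448) and Per2 exceeded Per3 by 1.79 ± 0.32 (adjusted p = 0.0349) in the antibody difference. These direct comparisons between probes of related genes, 7 in number, were chosen after the values were seen and were adjusted together with the 8129 probe pairs. Both calls were lost when any one of the 4 arrays was left out (1.39 to 2.14 for Per1 and 1.48 to 2.10 for Per2), without the filter on dim probes and with the replicate number as a block (adjusted p = 0.0684 and 0.0570), and Per1 against Per3 also with cyclic loess scaling (adjusted p = 0.0533). Per1 and Per2 differed by −0.024 (95% interval −0.56 to 0.51).

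The Cryptochrome proteins are the main repressors of CLOCK and BMAL1. Cry1 (chr10:84594731-84594790 in mm9, minus strand, position 2670) had levels of −1.15 and −1.45 on the CPEB3 arrays against −1.26 and −1.78 on the control arrays. The groups overlapped, and the difference of 0.22 (95% interval −0.46 to 0.90) did not pass (limma adjusted p = 0.538). The 3′ probe of Cry2 (chr2:92243807-92243866, minus strand, position 3938) was bright, at 14236 and 9083 units against 10195 and 9772 units. Its levels were 4.81 and 4.68 on the CPEB3 arrays and 4.52 on both control arrays. The groups did not overlap, yet the difference was only 0.22 (95% interval −0.20 to 0.65, adjusted p = 0.329). The 5′ probe of Cry2 (chr2:92251417-92251476, position 2133 of another transcript) gave −1.24 and −0.77 against −1.60 and −0.85 and a difference of 0.22 (95% interval −0.68 to 1.12, adjusted p = 0.644). The upper bound for the 3′ probe, 1.57-fold, lies below the fold measured for Per1 and Per2. Between the Cry2 probes, 7610 bp apart in the genome, the antibody difference differed by 0.0033 (95% interval −1.06 to 1.07). Between Cry2 and Cry1 it differed by 0.0046 (95% interval −0.73 to 0.74). The signs of these last comparisons turned with quantile and cyclic loess scaling.

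In the second loop Nr1d1 was lower, and Nr1d2 did not pass the test. The Nr1d1 probe at position 1919 aligns over 503 bp of genome, chr11:98630526-98631028 in mm9 on the minus strand, so its 60 bases are not contiguous there. The signal was 234 and 183 units on the CPEB3 arrays against 556 and 688 units on the control arrays. The levels were −1.11 and −0.95 against 0.33 and 0.70, so both CPEB3 IgG arrays lay below both controls. The difference was −1.54 ± 0.20 (SE, limma adjusted p = 0.00988), which is 2.91-fold lower with a 95% interval of 1.99 to 4.26. It was the lowest difference among the clock probes, at percentile 6.93 of all probes. The call was lost with spike-in scaling (−0.89, adjusted p = 0.302) and without CPEB3 IgG replicate 1 (−1.46, adjusted p = 0.0616) or 2 (−1.62, adjusted p = 0.0506).

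Nr1d2 encodes the closely related REV-ERB beta. Its probe at chr14:19037253-19037312 (mm9, minus strand, position 3897) had levels of 2.20 and 2.29 on the CPEB3 arrays against 1.69 and 1.73 on the control arrays. A second probe named Nr1d2, designed on a cDNA and placed by the files on chr19:40271435-40271494 although the gene lies on chromosome 14, gave 2.87 and 2.93 against 2.48 and 2.49. At both probes the groups did not overlap and the CPEB3 IgG arrays were higher. The differences were 0.54 (95% interval 0.12 to 0.96, limma adjusted p = 0.0605) and 0.42 (0.0013 to 0.83, adjusted p = 0.105), and neither passed. Both passed with median scaling (0.83 and 0.71) and with a variance prior that follows intensity, and the chromosome 14 probe also with the filter on all 4 arrays. The probes differed from each other by −0.12 (95% interval −0.64 to 0.40). Against Nr1d1, the chromosome 14 probe had an antibody difference higher by 2.08 ± 0.22 (limma adjusted p = 0.0178). That call was lost without CPEB3 replicate 1 (2.04), CPEB3 replicate 2 (2.11) or control replicate 1 (2.25). The brighter probe, placed on chromosome 19 and therefore of unsettled identity, gave 1.96 ± 0.23 (adjusted p = 0.0192), lost when any one of the 4 arrays was left out (1.78 to 2.14).

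Dbp, a PAR-domain transcription factor, is the output gene of the set. Its probes lie 139 nt apart at chr7:52965322-52965381 and chr7:52965461-52965520 (mm9, plus strand, positions 1426 and 1565). The upstream probe read 15618 and 9977 units on the CPEB3 arrays against 13630 and 12918 units on the control arrays, and its levels of 4.95 and 4.82 overlapped the control levels of 4.94 and 4.93. The downstream probe had levels of 4.75 and 4.43 against 4.78 and 4.88, with the CPEB3 IgG arrays lower. The differences were −0.052 (95% interval −0.48 to 0.37, limma adjusted p = 0.820) and −0.24 (−0.75 to 0.27, adjusted p = 0.376). Both turned positive with median and with spike-in scaling. The probes differed from each other by −0.19 (95% interval −0.75 to 0.37).

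**Figure D3:**
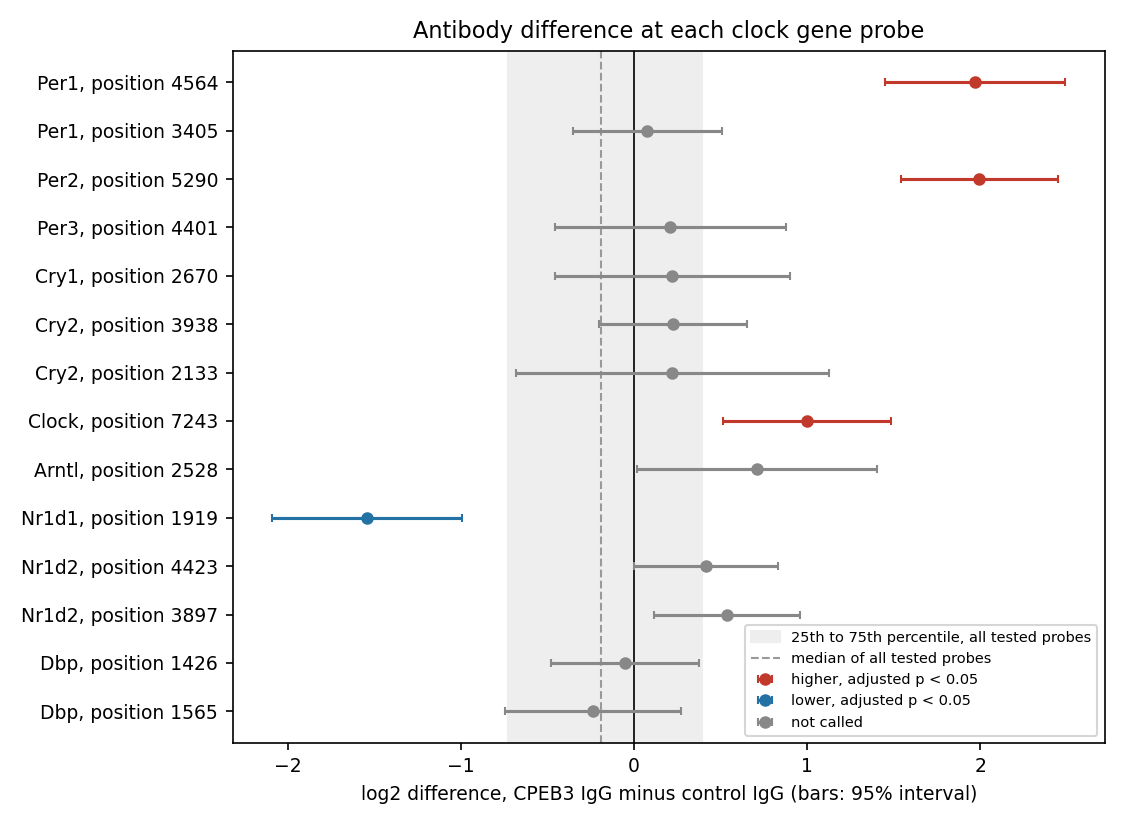
Log2 difference, CPEB3 IgG minus control IgG, of each clock gene probe with its 95% interval, in red where called higher and in blue where called lower, over a grey band from the 25th to the 75th percentile of all tested probes. Per1 at position 4564 and Per2 lie at 1.97 and 1.99, Clock at 1.00 and Nr1d1 at −1.54, and the other 10 points are grey.

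The T-rich sequence of the probes can be set beside these differences. A run of TTTTT, searched only on the strand of the probe as printed, occurs in 3 of the 14 clock probes, those of Per1 at position 4564, of Clock and of Nr1d2 at position 4423, and in 10.6% of all tested probes. The probe at position 4423 is the one placed on chromosome 19, so whether it measures Nr1d2 is unsettled. The hexamer TTTTAT occurs in 1 clock probe, the 3′ probe of Cry2, and in 3.71% of all tested probes. Whether CPEB3 itself binds this hexamer was not tested, so a probe that carries it is not taken as a CPEB3 site. Over all tested probes 31.1% of those with TTTTT were called higher and 9.77% lower, against 14% and 20% of those without it. Of those with TTTTAT 35.6% were called higher and 10.6% lower, against 15.1% and 19.3% of those without it. The place of these probes along their transcripts was not compared, so sequence and position cannot be told apart here. Of the clock probes with either sequence 2 were called higher. The Cry2 probe, with 45% T and the hexamer, and the probe named Nr1d2 at position 4423, with TTTTT, were not called. Per2 was called higher with neither. A match in a probe describes these letters alone, and the rest of the transcripts was not searched.

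Beyond the 10 genes, 30 further genes of the clock pathway were read at their brightest probe. Of these 8 were higher, 2 were lower and 20 did not pass at that probe, where 36.7% of all genes were called on this rule, 18.2% higher and 18.5% lower. This balance moved with the setting. All 13 genes called with median scaling and all 8 called with spike-in scaling were higher. With normexp 11 were higher and 2 lower, and with the filter on all 4 arrays 11 and 3. With a variance prior that follows intensity they were 12 and 3. The upward share of calls over all probes moved as well, to 66.2% with median and 85.1% with spike-in scaling. It was 49.1% with normexp, 46.1% with that filter and 46.7% with that prior. Some genes that did not pass at the brightest probe were called at a dimmer one, as reported. Arntl2 was higher at its dimmer probes, with the larger difference 1.89 (limma adjusted p = 0.00936) at mean levels of −3.42 against −5.31. Ppargc1a was higher by 1.36 (adjusted p = 0.0109). Bhlhe41 was lower (−1.02, adjusted p = 0.0203), as was Ncor1 at its dimmest probe (−0.74, adjusted p = 0.0341). The median difference of the 30 genes was 0.42, against −0.14 over all genes. The largest was that of Sirt1, a deacetylase that modulates CLOCK and BMAL1, with levels of 3.41 and 3.26 against 0.53 and 0.54. The CPEB3 IgG arrays were 6.96-fold higher (difference 2.80 ± 0.16, SE, limma adjusted p = 0.00526), and the call held in all 14 alternatives.

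Ciart, a repressor of CLOCK and BMAL1, rose by 1.72 ± 0.25 (adjusted p = 0.0124), with levels of 0.45 and 1.00 against −1.12 and −0.87, and missed the threshold without CPEB3 IgG replicate 2 (1.45, adjusted p = 0.0501). Csnk1e, casein kinase 1 epsilon, which phosphorylates the Period proteins, rose by 1.53 ± 0.16 (adjusted p = 0.00677) in all settings. Wdr5, a chromatin protein reported in Period complexes, rose by 1.52 ± 0.18 (adjusted p = 0.00828), and missed it without CPEB3 IgG replicate 1 (1.42, adjusted p = 0.0535). The other 4 higher genes, named after their values were seen, were Usp2, Csnk1d, Timeless and Wee1, at 1.49, 1.39, 1.1 and 1.05. Of these the call of Csnk1d was lost without CPEB3 IgG replicate 1 (1.23), that of Timeless without either CPEB3 IgG array (1.08 and 1.12), and that of Wee1 without any of these or control IgG replicate 1 (0.95 to 1.13). Timeless and Wee1 also missed the threshold without scaling (1.06 and 1.02).

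The lower genes were Gsk3b, a kinase that phosphorylates several clock proteins (−0.89 ± 0.17, limma adjusted p = 0.0206), and Kdm5a, a histone demethylase that works with CLOCK and BMAL1 (−0.85 ± 0.16, adjusted p = 0.0216). Each lost its call in 8 of 14 alternatives, among them the omission of any one array, and with spike-in scaling they lay at −0.24 and −0.19. Gsk3b also went in both directions between its probes, ordered by genomic position. It had −1.41 (limma adjusted p = 0.0128) at its most 5′ probe and 0.69 (adjusted p = 0.0323) at its most 3′ probe. Of 16 of these genes with a placed probe pair, 3 were called (limma, adjusted p under 0.05), each with a higher antibody difference at the 3′ probe. These were Csnk1d (2.17 ± 0.36), Gsk3b (2.10 ± 0.25) and Csnk1e (1.82 ± 0.25), beside the 19% called among all genes. The 5′ probes of Csnk1d and Csnk1e lay at −0.77 (adjusted p = 0.0815) and −0.29 (adjusted p = 0.405) and were not called.

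**Figure D4:**
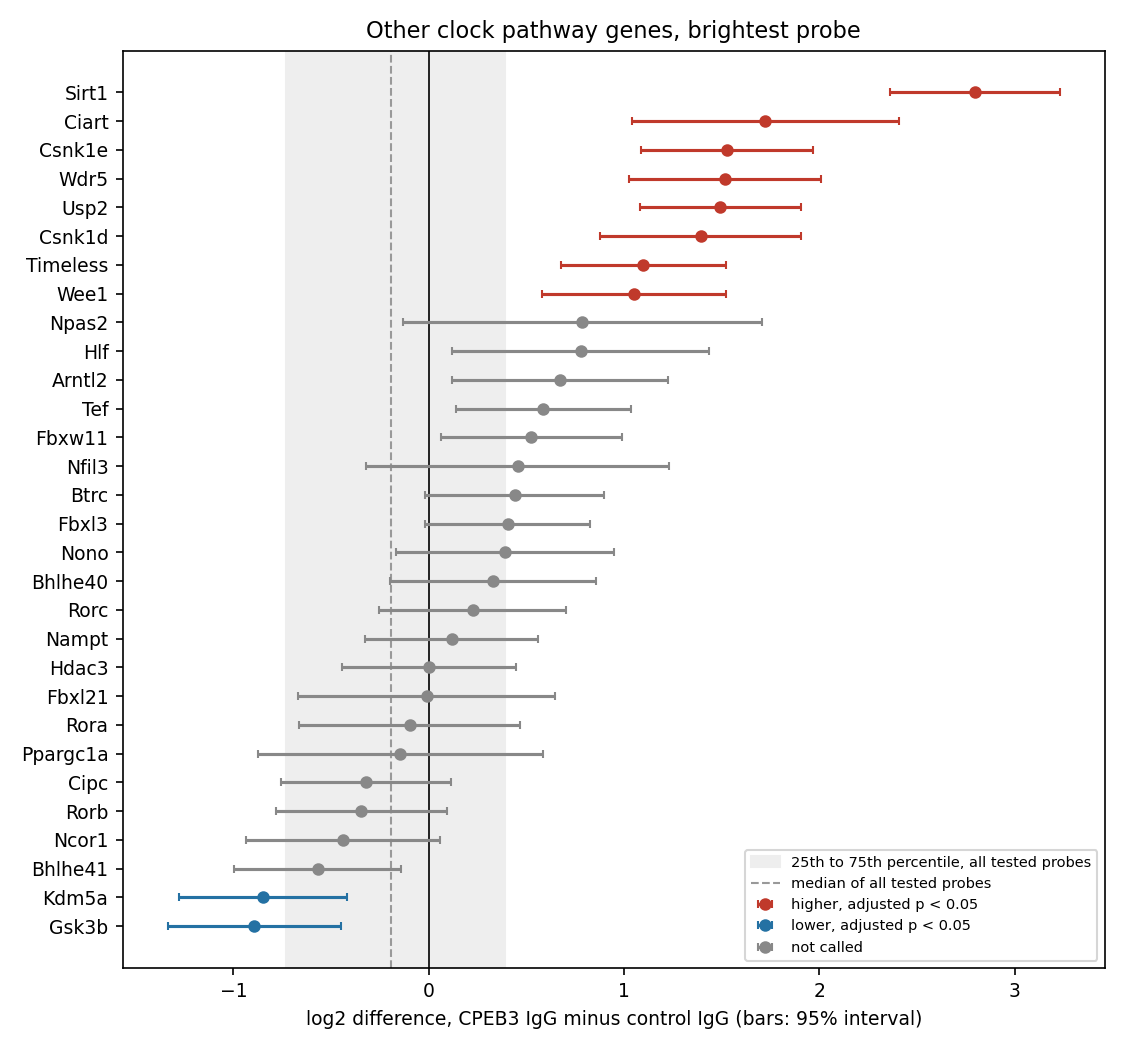
Log2 difference, CPEB3 IgG minus control IgG, of 30 other clock pathway genes at their brightest probe, with 95% intervals, sorted by size and coloured by call as labelled, over the 25th to 75th percentile of all tested probes in grey. The 8 higher genes run from Wee1 at 1.05 to Sirt1 at 2.80, and Gsk3b and Kdm5a are the lower genes.

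For scale, Cpeb3 mRNA itself was higher by 2.95 ± 0.23 (limma adjusted p = 0.00526) and the glucocorticoid receptor mRNA Nr3c1 by 1.06 ± 0.17 at its brighter probe (adjusted p = 0.0143), with −0.29 at its other probe (adjusted p = 0.345). The Per1 and Per2 differences lie between these, and the Clock difference of 1.00 lies close to that of Nr3c1.

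**Figure D5:**
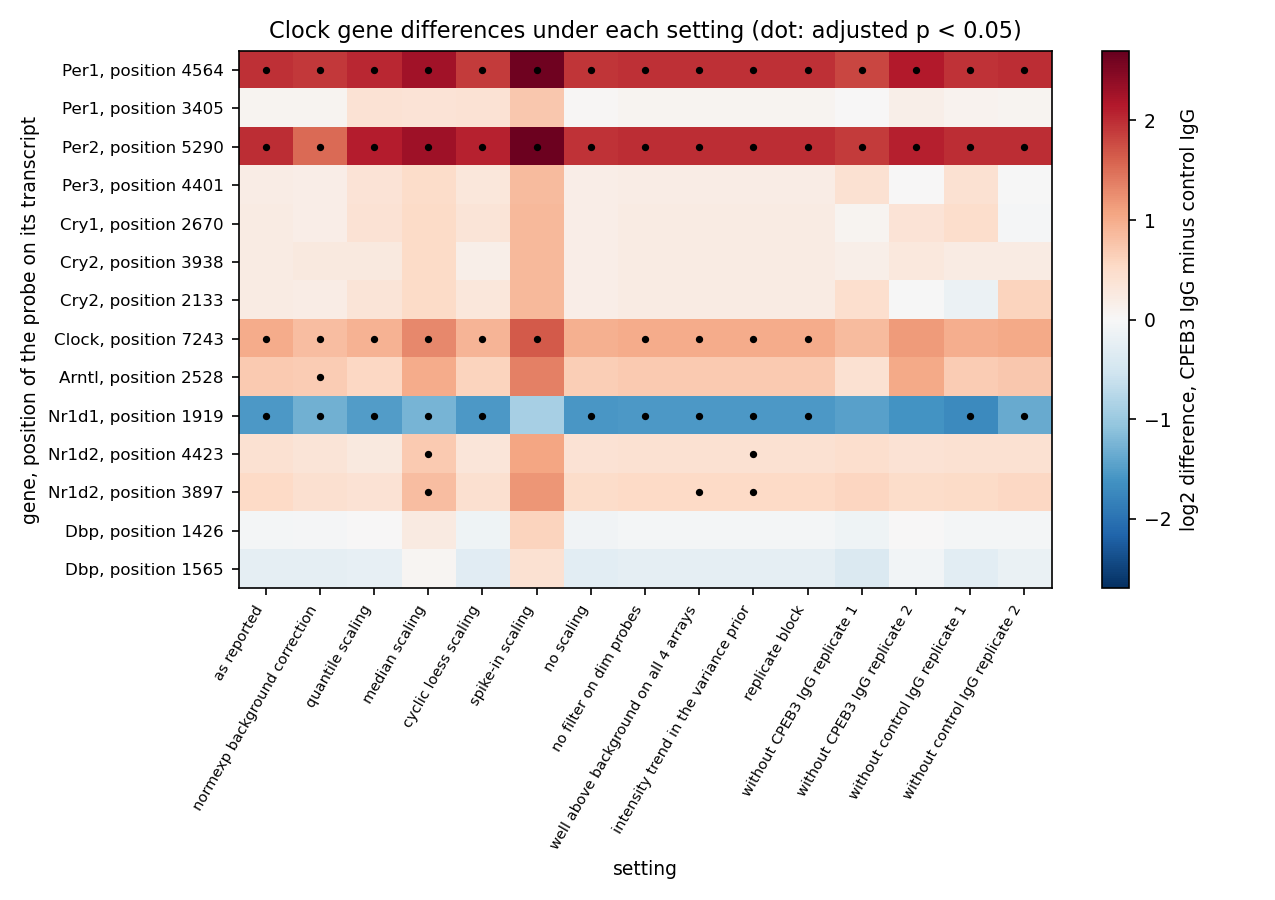
Log2 difference of each clock gene probe (rows) as reported and under 14 alternatives (columns), coloured from blue (lower with CPEB3 IgG) to red (higher), with a dot where the adjusted p was under 0.05. Per1 at position 4564 and Per2 carry a dot in every column, while Clock lacks it in all 4 columns that leave out an array and without scaling, and Nr1d1 lacks it with spike-in scaling and without either CPEB3 IgG array.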

How the data were processed

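RNA precipitated with CPEB3 IgG or control IgG (2 arrays each, grouped by sample title) was amplified from 0.2 ug and labelled with Cy3, per the labels' protocols. The deposited values are 1-colour spot intensities from Agilent Feature Extraction 10.5.1.1, with spatial and multiplicative trends removed within each array and no normalisation between arrays, per the file headers. Probe coordinates are on mm9, per the file headers, and their place in exons or UTRs was not analysed here.

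Control spots and outlier spots were left out, and log2 of the processed signal minus the array's 75th percentile was averaged over the spots of a probe. Those that 2 or more of the 4 arrays measured well above background entered limma 3.58.1 (lmFit, eBayes, no block) in R 4.3.3, with Benjamini-Hochberg adjustment over 40608 probes. Symbols were updated through RefSeq accessions with a GRCm38 table (27509 probes matched, 2017 renamed). Intervals are 95% on moderated degrees of freedom. The fit was tested on simulated data. Replicate arrays shared 0 identical spot values.

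The text names all 10 clock genes. Of the other pathway genes called at their brightest probe it names the 4 with the largest positive differences and the only 2 with negative ones. The other 4 called, and the genes named as called only at a dimmer probe, were named after their values were seen. The members and lists were chosen with earlier results of these data known. All arrays were on 1 slide in 1 scan, and the slide row separates the antibodies, so position and antibody cannot be told apart.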

Additional observations from a re-analysis of the deposited data

How the results depend on the processing

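At adjusted p under 0.01 the counts were 3 clock probes, 4 other pathway genes, 4750 probes in all and 0 clock genes with unequal probes (limma, 1 of 3 at an unadjusted p under 0.05), against 4, 10, 14111 and 1 as reported. All probes called numbered 7375 with spike-in scaling and 9352 with dim probes kept, and 6 other pathway genes were called without scaling. Every clock probe had the same SE with spike-in scaling (0.56) and again without scaling (0.46), where that of Nr1d1 was 0.20 as reported. Calls under these settings therefore differ in the error used as well as in the value. With each array left out in turn there were 2 to 3 clock probes, 4 to 8 other pathway genes, 4461 to 10057 probes in all and 0 to 1 clock genes with unequal probes (limma, 1 of 3 at an unadjusted p under 0.05 each time); the lone array of a group was then assumed to vary like the others. Signs turned only for differences that were not called. With each array left out the range crossed 0 for the upstream Dbp probe (−0.12 to 0.010), the 5′ probe of Cry2 (−0.15 to 0.60), Per3 (−0.00093 to 0.42), Cry1 (−0.040 to 0.48), the Cry2 probe pair (−0.37 to 0.38), Cry2 against Cry1 (−0.25 to 0.26) and Per1 against Per2 (−0.092 to 0.045). The upstream Dbp probe turned with quantile (0.014), median (0.24) and spike-in scaling (0.60), and the downstream Dbp probe with median (0.051) and spike-in scaling (0.41). The Cry2 probe pair turned with quantile (−0.098) and cyclic loess scaling (−0.16), Cry2 against Cry1 likewise (−0.14 and −0.20), and Per1 against Per2 with normexp (0.38). With the replicate number as a block 15844 probes, 4 clock probes and 10 other pathway genes were called. Same-numbered arrays deviated together (r = 0.36 across probes), but with 2 pairs this does not show that they were paired. A slide block could not be fitted. The number of arrays limits every value, and dim probes such as the 5′ probe of Per1 are measured over little signal. The cause of these changes was not tested.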
